A study of Saccharomyces cerevisiae with 4 samples.

Results

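Of the 1892 mRNA positions that the authors listed as 5-formylcytidine (f5C) sites of Saccharomyces cerevisiae, 307 lay 1 to 100 nt from another listed site of the same gene and strand. They are called clustered sites here. They were chosen by position alone, among the 1889 sites assigned to a single gene, and made up 16.3% of them. The remaining 1582 single-gene sites had no such neighbour, and 3 sites assigned to more than 1 gene were left out. The clustered sites formed 148 clusters in 142 genes on all 16 nuclear chromosomes. By distance to the nearest listed site, 85 lay at 1 to 4 nt, 61 at 5 to 20 nt and 161 at 21 to 100 nt.

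Poly(A)+ RNA came from budding yeast grown overnight from a single colony in 4 mL of rich medium at 28 °C; no strain name, mutation or genotype was used here. The treated group holds 2 libraries of RNA fragments kept for 24 h at 37 °C with 0.9 M pyridine borane, in 0.6 M sodium acetate of pH 5.2, and the input group holds 2 libraries of the same kind of RNA without that reagent. Both groups are numbered 1 and 2, and the labels do not tell whether these are separate cultures, so the spread between libraries, given as SDs, may be technical. The exact tests below use counts summed over replicates, so their p-values measure read-counting error and not that spread. The locus names fit the labelled organism: 1887 of the 1889 single-gene sites, and all 307 clustered ones, matched a gene of the RefSeq yeast annotation.

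f5C is an oxidised form of 5-methylcytidine. In transfer RNA it is best known at the wobble base of the anticodon of mitochondrial methionine tRNA, where it widens codon reading. Pyridine borane reduces f5C to dihydrouridine, which reverse transcriptase copies as if it were U. Sequencing then shows a modified cytidine as a mutated base after treatment and as the normal base without it. The level of a site is the percentage of covering reads that were mutated in treated RNA, averaged over the 2 treated libraries. In each treated library every listed site reached 7.5% and 10 or more mutated reads. Neighbouring sites are thus alike in part by that selection, which kept the range of levels narrow.

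Per nucleotide of distance, neighbouring sites were densest at 1 to 4 nt, although most pairs lay farther apart. The 148 clusters held 159 pairs of consecutive sites. Of these pairs 43 lay 1 to 4 nt apart, 31 lay 5 to 20 nt apart and 85 lay 21 to 100 nt apart. Per nucleotide of distance this is 10.8 pairs, 1.94 pairs and 1.06 pairs. Among the 477 pairs of consecutive sites over 100 nt apart, the density was 0.760 pairs per nucleotide up to 300 nt and 0.336 from there to 1000 nt. A distance of 3 nt was the most frequent of all distances up to 100 nt, with 16 pairs, followed by 2 nt with 12 pairs, 1 nt with 10 pairs, and 4 nt and 24 nt with 5 pairs each. These are counts of listed positions. The cytidines that could have been listed at each distance were not counted, as no genome was used here.

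**Figure D1:**
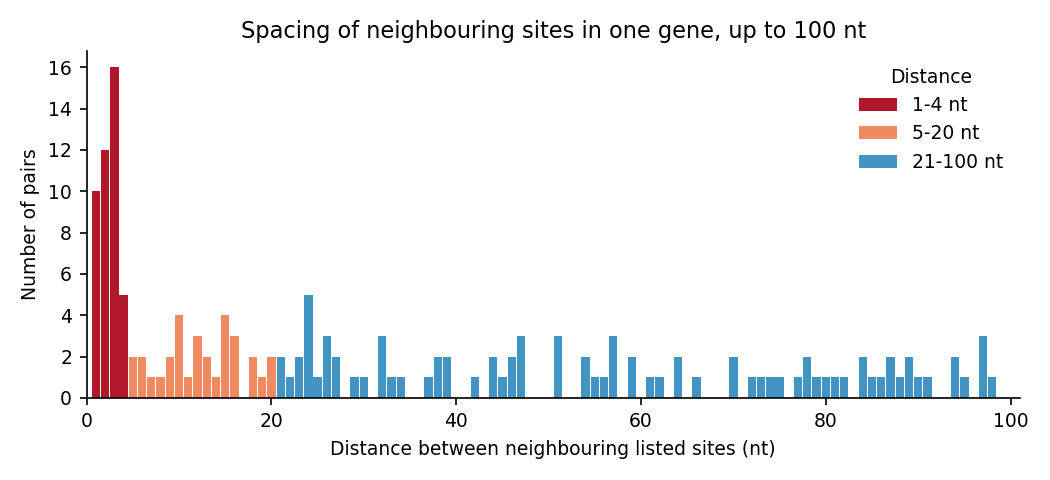
Number of pairs of consecutive listed sites of a gene (vertical axis) at each distance from 1 to 100 nt (horizontal axis), with bars coloured by distance class. The bars at 1, 2 and 3 nt stand at 10, 12 and 16 pairs, and no bar from 5 nt on exceeds 5 pairs.

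Most clusters were pairs. There were 138 clusters of 2 sites, 9 of 3 sites and 1 of 4 sites. In 61 of the 142 genes the cluster was a pair that made up all listed sites of the gene, and 6 genes held 2 clusters each: HSP104, ACC1, GDB1, HOL1, HSC82 and SSB1. Of the 425 genes with more than 1 listed site, 33.4% had a cluster. At the edge of the window, the KGD1 pair just inside, 98 nt apart, had levels of 8.84% at the 5′ site and 10.6% at the 3′ site, and the TDA7 pair just outside, 101 nt apart, had 8.77% and 11.6%. Other listed sites within 100 nt on the same strand but in another gene, or on the opposite strand, numbered 0.

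Clustered sites had nearly the same median level as the others. The median level was 8.98% at clustered sites, against 9.003% at the other single-gene sites, with quartiles of 8.35% and 9.95% against 8.35% and 10.2%. By distance to the nearest site the medians were 8.83% at 1 to 4 nt, 9.09% at 5 to 20 nt and 9.05% at 21 to 100 nt. These medians are descriptions, since sites of 1 gene share a transcript and are not replicates. Averaged over sites within each library, clustered sites stood at 9.23% and 9.48% in treated replicates 1 and 2, and the other sites at 9.55% and 10.1%. The mean over both replicates was 9.35% ± 0.180 at clustered sites and 9.81% ± 0.358 at the other sites (SD, n = 2 each).

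A level of 15% or more was reached by 3 clustered sites (0.977%), against 47 of the other sites (2.97%). The share was 0.877% at the 114 other sites of the same genes, 2.19% at the 640 sites of genes with several sites and no cluster, and 3.86% at the 828 sites alone in their gene. Few high levels were thus not particular to clustered sites. All 3 clustered sites lay 5 to 20 nt from their neighbour, in IRA2, FMP48 and SSB1. Clustered sites were also deeper covered. Their median coverage was 575 and 404 reads in treated replicates 1 and 2, against 457 and 312 reads at the other sites. In input replicates 1 and 2 it was 526 and 417 reads, against 398.5 and 324. In treated replicates 1 and 2 the median was 564 and 402 reads at the other sites of the same genes. It was 509.5 and 353 in genes with several sites and no cluster, and 406 and 269.5 at sites alone in their gene. Higher coverage was thus not particular to clustered sites. The part of the minimum of 10 mutated reads per listed site in these depths was not tested. A higher coverage can stand for more RNA per cell or for more cells with the transcript, which cannot be told apart in bulk RNA. Fewer than 200 reads in at least 1 library were found at 13.7% of clustered sites and at 25.0% of the others. Within bands of the lowest coverage over the 4 libraries, the median levels were 10.3% against 10.6% under 200 reads, 8.98% against 8.78% from 200 reads to under 1000, and 8.53% against 8.49% from 1000 reads on, each with clustered sites first. The part of coverage in the share of high levels was not tested.

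**Figure D2:**
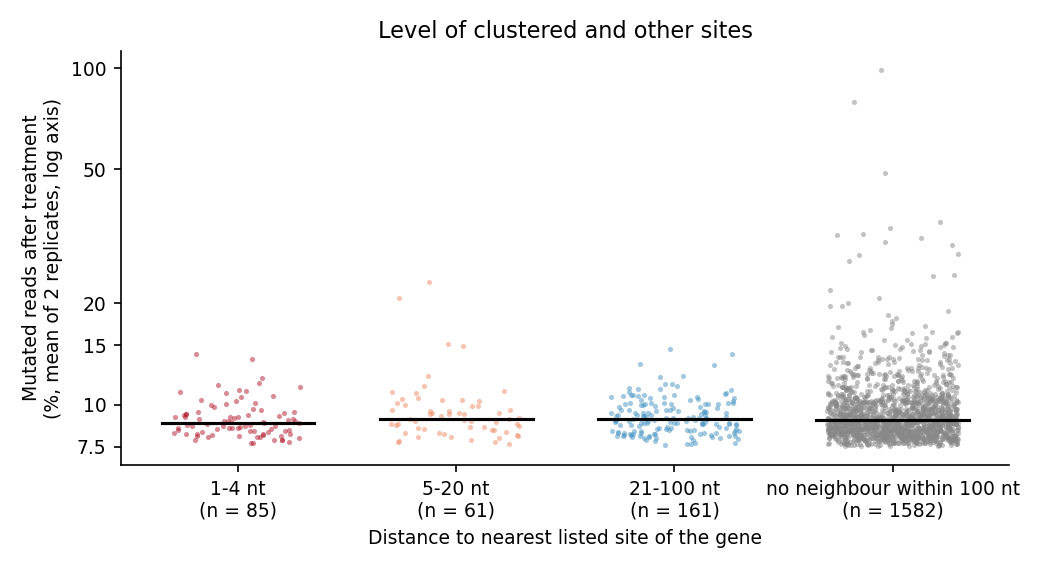
Level of each single-gene site (percentage of mutated reads after treatment, mean of 2 replicates, log axis) by distance to the nearest listed site of the gene, with a black line at the median. The medians lie at 8.83%, 9.09%, 9.05% and 9.003%, and points above 25% occur only in the rightmost column, the 1582 sites without a neighbour within 100 nt.

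Input RNA carried almost no mutated reads at these positions. The authors chose all listed sites on the contrast of treated against input RNA, so low input shares follow in part from that choice. Over all clustered sites 238 of 507722 reads (0.0469%) were mutated in input replicate 1 and 193 of 414107 reads (0.0466%) in input replicate 2. With replicates summed the share was 0.0468% (Wilson 95% interval 0.0425% to 0.0514%), against 0.0459% (0.0438% to 0.0480%) at the other sites. The intervals overlap and cover counting error only. By distance class the summed input share was 0.0480% at 1 to 4 nt, 0.0442% at 5 to 20 nt and 0.0466% at 21 to 100 nt, again with overlapping intervals. No mutated input read was seen at 57.0% of clustered sites, against 65.5% of the other, shallower sites. The highest input fraction of a clustered site was 0.380%, at HXT7 (hexose transporter), from 2 reads in input replicate 1 and 1 read in input replicate 2. It was followed by 0.3003% at RPB2 (a core subunit of RNA polymerase II), 0.259% at TRP5 (tryptophan synthase), 0.241% at GDB1 (glycogen debranching enzyme) and 0.230% at FRA1 (regulation of iron uptake).

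All 307 clustered sites were higher in treated than in input RNA by two-sided Fisher exact test on summed counts, with Benjamini-Hochberg adjustment over all 1892 sites. The background is 100%, since the authors chose the whole list on this contrast, so nothing is read from that count. The smallest difference at a clustered site was 7.56 percentage points. The treated replicates differed at 8 clustered sites (2.61%) at an unadjusted exact p of 0.05, near the 2.75% of all listed sites, and at 0 sites after adjustment by the same Fisher exact test. These sites lay in RPL4B, STT3, TRX2, URA2, FBA1, GFA1, RPB2 and YDC1. The RPB2 site at position 614356 of chromosome XV had the smallest p, with 9.13% in treated replicate 1 and 17.3% in treated replicate 2 (exact p = 0.000623, unadjusted).

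Clusters of 3 or more sites occurred in 10 genes, and the plot of those clusters shows all their values. Positions are given as deposited, and the genome build is not stated in the sources used here.

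The cluster of IRA2 (YOL081W, chromosome XV, plus strand), which encodes a GTPase-activating protein that switches Ras off, held the highest clustered site. From 5′ to 3′ its sites lay at positions 171125, 171139 and 171198. The first had 18.9% and 11.0% mutated reads in treated replicates 1 and 2. The site 14 nt downstream had 21.7% and 24.5%, and the site a further 59 nt downstream had 8.23% and 10.4%. In both libraries the middle site was thus the highest and the 3′ site the lowest, a 2.48-fold range of mean levels. Coverage was 127 to 231 treated reads, and the input libraries had 0 mutated reads at all 3 sites. The middle site exceeded the 3′ site by 13.8 ± 0.494 points (SD, n = 2; Fisher exact test, adjusted p = 5.36e-06). The 5′ site lay 8.14 ± 7.55 points below the middle site, which did not pass (adjusted exact p = 0.166; interval of the difference of summed fractions -13.7 to -1.32 points).

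FBA1 (YKL060C, chromosome XI, minus strand), the fructose bisphosphate aldolase of glycolysis, had the deepest clustered sites. At positions 326629, 326578 and 326557, from 5′ to 3′, the levels were 8.86% and 8.41%, then 8.999% and 9.213%, then 7.67% and 7.62% in treated replicates 1 and 2. The 3′ site was the lowest in both libraries. At 83428 to 97049 treated reads per site even small differences passed the test. The middle site was 1.46 ± 0.182 points above the 3′ site 21 nt away (adjusted exact p = 2.22e-25). The 5′ site minus the middle site, 51 nt away, gave -0.472 ± 0.470 points (adjusted exact p = 0.0226). That difference was as large as its SD, at -0.139 points in replicate 1 and -0.804 points in replicate 2.

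TRX2 (YGR209C, chromosome VII, minus strand), a cytosolic thioredoxin, had 3 sites in steps of 3 nt, at positions 912996, 912993 and 912990. Their mean levels were 8.38% ± 0.0806, 8.36% ± 1.10 and 8.62% ± 0.0924 (SD, n = 2), a range of 0.261 points. At 11831 to 12088 treated reads per site, the difference between the 5′ and the middle site had an interval of -0.7995 to 0.612 points, and that between the middle and the 3′ site -0.848 to 0.565 points. The replicates of the middle site, 9.13% and 7.58%, lay farther apart than the 3 sites did. HSP104 (YLL026W, chromosome XII, plus strand), the disaggregase that rescues proteins after heat shock, held 5 of its 8 sites in 2 clusters. The cluster of 3 at positions 89154, 89156 and 89179 had mean levels of 8.52%, 8.84% and 7.996%. The pair at 90937 and 90940, 3 nt apart, had 8.53% and 8.18%. None of these pairs passed the test (adjusted exact p of 0.195 or more), and the largest SD of a site was 0.585 points. The 3′ site of the cluster of 3 was still the lowest in both libraries. It had 7.93% and 8.06% in treated replicates 1 and 2, against 8.92% and 8.77% at the middle site.

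YHR033W (chromosome VIII, plus strand) held the cluster of 4 sites, at positions 175936, 175968, 175969 and 176003. The levels were 9.57%, 8.56%, 8.63% and 8.70% in treated replicate 1, and 10.4%, 9.81%, 8.24% and 9.08% in treated replicate 2. The 5′ site was the highest in both libraries. ARO4 (YBR249C, chromosome II, minus strand), which starts aromatic amino acid synthesis, had mean levels of 9.23%, 8.67% and 11.0% from 5′ to 3′, the last pair only 3 nt apart. The 3′ site was the highest in both libraries, and its difference of -2.34 ± 1.012 points did not pass (adjusted exact p = 0.409; interval -5.11 to 0.167 points). ARO4 has a paralog, ARO3.

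The other 4 clusters had ranges of 0.964 to 1.76 points between their sites, and no pair among them passed the test. In GFA1 (chromosome XI), which makes the glucosamine precursor of chitin, the cluster spanned 144 nt, the widest of all clusters, with 8.04%, 8.99% and 9.62%. The 3′ site of GFA1 had 11.6% in treated replicate 1 and 7.61% in treated replicate 2. SAM35 (chromosome VIII), part of the machinery that inserts proteins into the mitochondrial outer membrane, had 8.98%, 8.01% and 8.16%. GSF2 (chromosome XIII), an endoplasmic reticulum protein, had 8.89%, 9.48% and 10.3%, and MPF1 (chromosome XIV) had 10.1%, 9.20% and 8.36%. In SAM35, GSF2 and MPF1 every site was higher in treated replicate 2 than in treated replicate 1. The mean over all single-gene sites was also higher in treated replicate 2, at 9.97% against 9.50%. Every treated value in these 4 clusters was at least 7.52%, while each input library had at most 1 mutated read.

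**Figure D3:**
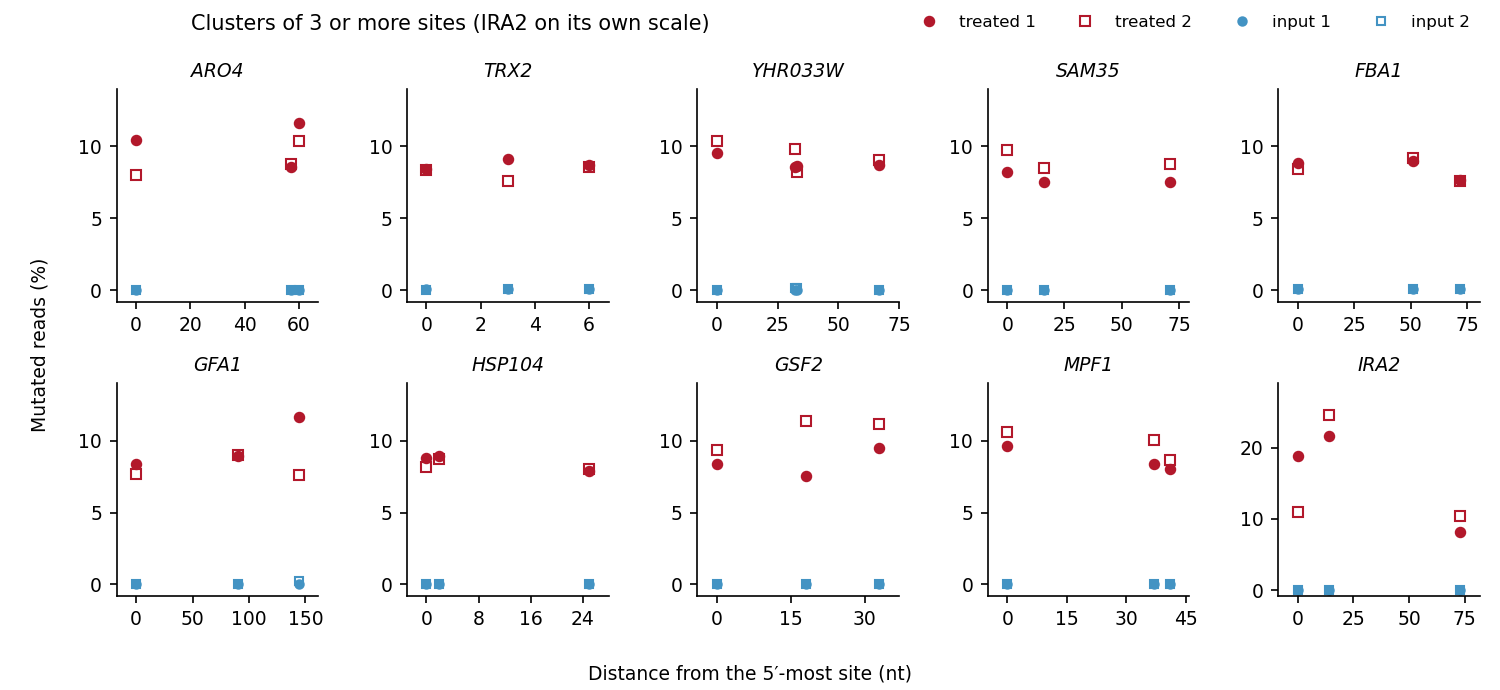
Percentage of mutated reads (vertical axis) at each site of the 10 clusters of 3 or more sites, against the distance from the 5′-most site in nt (horizontal axis), for treated replicates 1 and 2 (red) and input replicates 1 and 2 (blue). Treated values lie between 7.52% and 11.6% in all panels but that of IRA2, which has its own scale and reaches 24.5%, and input values lie near 0.

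The likeness of neighbouring sites was measured as the absolute difference of their levels. Its median was 0.959 percentage points over the 159 pairs within 100 nt, against 0.886 points over the 477 pairs farther apart. Within single libraries, the median difference between neighbours was 1.02 and 1.27 points in treated replicates 1 and 2 within 100 nt. Farther apart it was 1.11 and 1.13 points. Between the 2 treated replicates of the same site, likewise single libraries, the median difference was 0.850 points within 100 nt and 0.827 points farther apart. By distance class, the median difference of mean levels was 0.580 points at 1 to 4 nt, 1.16 points at 5 to 20 nt and 1.08 points at 21 to 100 nt. Differences under 1 point were found in 31 of 43 pairs (72.1%), 14 of 31 pairs (45.2%) and 40 of 85 pairs (47.1%), against 261 of 477 pairs (54.7%) over 100 nt. Pairs 1 to 4 nt apart were also deeper, with a median of 1554 treated reads at the shallower site, against 942 and 655 in the next classes and 742 over 100 nt. Divided by the counting error of each pair, the median differences were 0.516, 0.807 and 0.871 in the 3 classes, and 0.729 over 100 nt. Among pairs with under 1000 reads in a library the median difference was 0.490 points at 1 to 4 nt (27 pairs), 1.12 points at 5 to 20 nt (28 pairs) and 1.06 points at 21 to 100 nt (71 pairs), and 0.905 points over 100 nt (404 pairs). With at least 1000 reads at both sites in every library, the median difference was 0.730 points at 1 to 4 nt (16 pairs), near the 0.751 points over 100 nt (73 pairs). Divided by counting error these were 1.38 and 1.42. In the same depth band the medians were 3.19 points at 5 to 20 nt (3 pairs) and 1.24 points at 21 to 100 nt (14 pairs). The smaller median at 1 to 4 nt than over 100 nt was thus found in the shallower pairs and hardly in the deep ones, and the difference between classes was not tested.

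Neighbours at 1 to 4 nt were covered by nearly the same number of reads. The coverage of both sites agreed within 5% in 39 of 43 pairs at 1 to 4 nt, in 15 of 31 at 5 to 20 nt and in 14 of 85 at 21 to 100 nt, against 55 of 477 over 100 nt. Reads that cover both sites of a pair are counted at both, so their counts are not independent. The files do not show whether the same reads were mutated at both sites. Across pairs, the levels of the 5′ and the 3′ site had a Pearson's r of 0.479 (Spearman's rho 0.280) over the 43 pairs at 1 to 4 nt, which were covered by nearly equal numbers of reads. Within these, r was 0.648 (rho 0.336) over the 27 shallower pairs and -0.00501 (rho -0.0853) over the 16 pairs with at least 1000 reads. The shallower pairs include that of EPO1, at 14.1% and 13.7%, and r without it was not computed. At few reads the minimum of 10 mutated reads raises the lowest level that can be listed. Close sites of equally low coverage share that limit, and its part in r was not tested. Over all 159 pairs r was 0.214 (rho 0.0554), and without the 2 IRA2 pairs it was 0.109. Over the pairs farther apart it was 0.0498 (rho 0.0777).

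**Figure D4:**
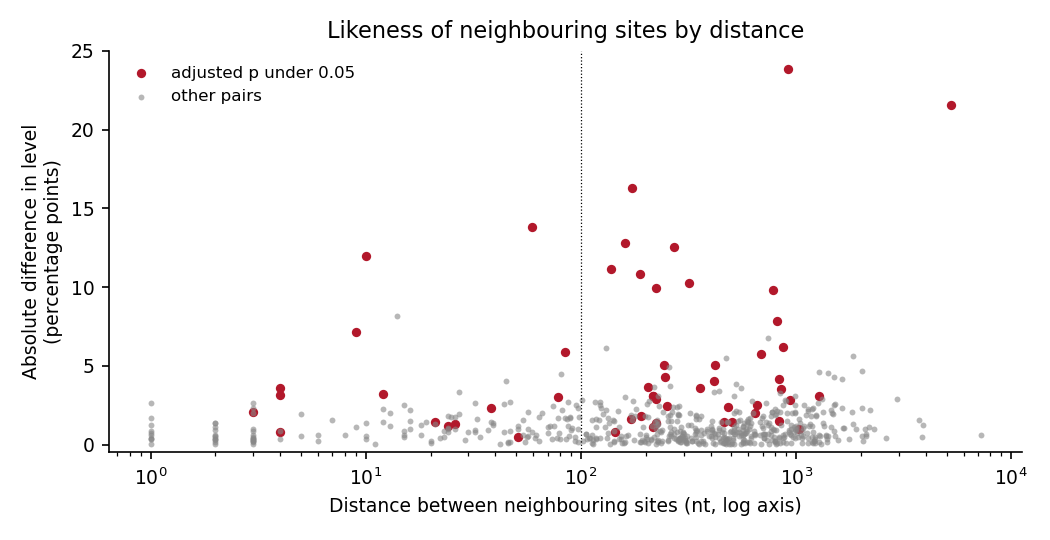
Absolute difference in level between consecutive sites (percentage points, vertical axis) against their distance (nt, log axis) for all 636 pairs, with pairs that passed the Fisher exact test in red and a dotted line at 100 nt. At 1 to 4 nt no difference exceeds 3.58 points, while beyond 100 nt the largest is 23.8 points.

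Pairs that differed beyond counting error numbered 15 of 159 within 100 nt (two-sided Fisher exact test on treated counts summed over replicates, adjusted p of 0.05 over all 636 pairs of any distance). This share of 9.43% was near the background of 8.49% over all pairs and the 8.18% of pairs over 100 nt. By distance 4 of 43, 3 of 31 and 8 of 85 pairs passed. At an unadjusted p of 0.05 the count was 28 of 159, or 17.6%, against a background of 15.6%. All 15 pairs had the same direction in both treated replicates, as did 99 of the 159 pairs (62.3%) and 288 of 477 pairs over 100 nt (60.4%). The 15 pairs were chosen on the sum of these replicates, so their agreement follows largely from that choice. Most of the pairs that passed were deep. Of the 15 pairs, 12 had at least 1000 reads at both sites in every library, among 33 such pairs within 100 nt (36.4%), against 20 of 73 over 100 nt (27.4%). Counting error also limited the rest. The interval of the difference lay within 3 points on either side of 0 in 52 of the 159 pairs.

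In the 4 close pairs that differed, both RPL4 genes took part. RPL4A (YBR031W, chromosome II, plus strand) and RPL4B (YDR012W, chromosome IV, plus strand) are paralogs that encode the same protein of the large ribosomal subunit. Each had 2 sites 4 nt apart. In RPL4A the 5′ site at position 300221 had 8.12% and 7.96% mutated reads in treated replicates 1 and 2, and the 3′ site at 300225 had 11.1% and 12.1%. In RPL4B the 5′ site at 471908 had 7.79% and 9.88%, and the 3′ site at 471912 had 11.7% and 12.2%. In each gene and library the 3′ site was higher. The difference of the 5′ minus the 3′ site was -3.58 ± 0.776 points in RPL4A (adjusted exact p = 3.69e-19) and -3.13 ± 1.16 points in RPL4B (adjusted exact p = 2.07e-05; SD, n = 2 each). The genes are near-identical and can share reads, so their values are not independent.

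The other close pairs that differed lay in CTT1 and PDC1. In CTT1 (YGR088W, chromosome VII), the cytosolic catalase that breaks down hydrogen peroxide, the sites at positions 654768 and 654771 had 7.80% and 8.19% at the 5′ site and 9.67% and 10.4% at the 3′ site in treated replicates 1 and 2. The difference was -2.05 ± 0.252 points (SD, n = 2; adjusted exact p = 0.000593). In PDC1 (YLR044C, chromosome XII), the main pyruvate decarboxylase, the 5′ site had 8.57% and 8.78% and the 3′ site, 4 nt downstream, 7.87% and 7.83%. Here the 5′ site was higher, by 0.827 ± 0.184 points at 23830 and 23879 treated reads (SD, n = 2; adjusted exact p = 0.0194). PDC1 has close paralogs with which it can share reads.

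Of the 10 pairs of directly adjacent sites, 0 passed by Fisher exact test after adjustment. Their median difference was 0.667 points. HEK2, an RNA-binding protein, had 9.29% at both sites, but with 8.31% and 10.3% at the 5′ site and 10.2% and 8.40% at the 3′ site in treated replicates 1 and 2. NCP1, the reductase that serves cytochrome P450 enzymes, had 7.70% and 8.06%, and ACC1, the acetyl-CoA carboxylase of fatty acid synthesis, 8.89% and 8.30% at its 5′ and 3′ sites. The largest adjacent difference was 2.61 ± 1.99 points in INA1 (11.3% at the 5′ site, 8.71% at the 3′ site; adjusted exact p = 0.304, interval 0.162 to 5.61 points). GAL80, the repressor of the galactose genes, followed with 9.54% at the 5′ and 7.85% at the 3′ site. The remaining adjacent pairs, in AVT6, NOC2, TRP5, VNX1 and YHR033W, differed by 0.357 to 1.23 points.

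At 2 nt, 0 of 12 pairs passed the same test, and the median difference was 0.512 points. The closest levels were those of PYC1, a pyruvate carboxylase, with 9.06% at the 5′ and 9.02% at the 3′ site, although its replicates had opposite orders: 7.95% and 10.2% at the 5′ site against 10.4% and 7.60% at the 3′ site. ADR1, a regulator of genes for ethanol use, had 7.74% and 7.88%. IPP1, the inorganic pyrophosphatase, was among the deepest, with 8.30% at the 5′ and 7.72% at the 3′ site and an interval of -0.100 to 1.36 points. SDH3, a membrane subunit of succinate dehydrogenase, had 10.4% and 9.41%, and SEC7, which activates ARF proteins at the Golgi, 11.0% and 11.4%. The largest difference at 2 nt was 1.35 points in SCW10, a cell wall glucanase, with the 5′ site higher. It was followed by that of TOM40, the channel through which proteins enter mitochondria, with 7.86% at the 5′ and 9.21% at the 3′ site. The other pairs lay in HIS4, SSB1, HSP104, CAT2 and STO1, with levels of 8.01% to 10.9%.

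At 3 nt the median difference was 0.427 points over 16 pairs, of which CTT1 alone passed. YNR014W had 8.08% at the 5′ and 7.94% at the 3′ site, CUE5, a ubiquitin-binding receptor of autophagy, 8.63% and 8.41%, and GND1, 6-phosphogluconate dehydrogenase, 8.55% and 8.19%. MNN2, a Golgi mannosyltransferase, had the largest difference of the 16, 2.67 ± 2.48 points, with 9.34% and 12.4% at the 5′ site in treated replicates 1 and 2 and 8.42% and 7.99% at the 3′ site (adjusted exact p = 0.420). BNA1, an enzyme of NAD synthesis, had 10.5% and 8.49% (adjusted exact p = 0.354). EPO1 had the highest levels of all sites at 1 to 4 nt, 14.1% and 13.7%, but at 226 and 230 treated reads, and its interval ran from -6.58 to 6.21 points. The other pairs at 3 nt were those of BMH2 (a 14-3-3 protein), ERP1, NSG2, PDE1, PMC1 and the pairs of ARO4, TRX2 and HSP104 given above. At 4 nt, besides RPL4A, RPL4B and PDC1, DAP1 had 8.63% and 8.25% and MPF1 had 9.20% and 8.36%.

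Larger differences were found at 5 to 100 nt. FMP48 (YGR052W, chromosome VII, plus strand), whose protein was found in mitochondria, had 7.79% and 9.73% at position 593950 in treated replicates 1 and 2, and 20.6% and 20.9% at position 593960, 10 nt downstream. The 3′ site was 2.37-fold higher, a difference of -12.0 ± 1.16 points (SD, n = 2; adjusted exact p = 3.46e-25). SSB1 (YDL229W, chromosome IV, plus strand), an Hsp70 chaperone that binds nascent chains at the ribosome, had 8.0% and 8.06% at position 44119 and 14.3% and 15.98% at position 44128. This difference of -7.13 ± 1.11 points (adjusted exact p = 5.48e-22) stands beside a further SSB1 pair, 2 nt apart at positions 44993 and 44995, with 8.96% and 10.1%, which did not pass (adjusted exact p = 0.820). SSB1 can share reads with its paralog SSB2. In FUN19 (YAL034C, chromosome I, minus strand) the 5′ site at position 81586 had 8.29% and 9.26%, and the 3′ site at 81502 had 13.8% and 15.49%, a difference of -5.87 ± 0.512 points (adjusted exact p = 3.80e-06).

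Both genes of the SUN family of cell wall proteins with a cluster, UTH1 and SIM1, differed in opposite directions. UTH1 (YKR042W, chromosome XI, plus strand) had 11.2% and 11.1% at position 519692 and 14.4% and 13.98% at position 519770 in treated replicates 1 and 2, a difference of -3.03 ± 0.147 points at 18120 and 23737 treated reads (adjusted exact p = 6.93e-19). SIM1 (YIL123W, chromosome IX, plus strand) had 11.4% and 10.6% at position 128583 and 7.70% and 7.85% at position 128595, with the 5′ site higher by 3.19 ± 0.681 points (adjusted exact p = 6.73e-05). The other 3 pairs that passed also had a higher 3′ site. Their differences were -2.33 ± 0.294 points in RPL9A, a protein of the large ribosomal subunit (adjusted exact p = 0.00542), -1.20 ± 0.320 points in ASC1, a protein bound to the small ribosomal subunit (adjusted exact p = 0.0103), and -1.28 ± 0.610 points in RPP0, the base of the ribosomal stalk (adjusted exact p = 0.0336; SD, n = 2 each). RPL9A has a near-identical paralog. Of the 6 ribosomal protein genes with a cluster, RPS8A (8.68% at the 5′ and 8.17% at the 3′ site) and RPL36A did not pass (adjusted exact p of 0.991 and 0.756). The pairs of RPL4A, RPL4B, RPL9A and RPP0 had at least 1000 reads at both sites in every library. Among all pairs of that depth within 100 nt, 12 of 33 passed (36.4%). In all, the 3′ site was higher in 11 of the 15 pairs that passed within 100 nt, against 21 of the 39 that passed over 100 nt and 32 of the 54 at all distances. The difference in these shares was not tested.

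**Figure D5:**
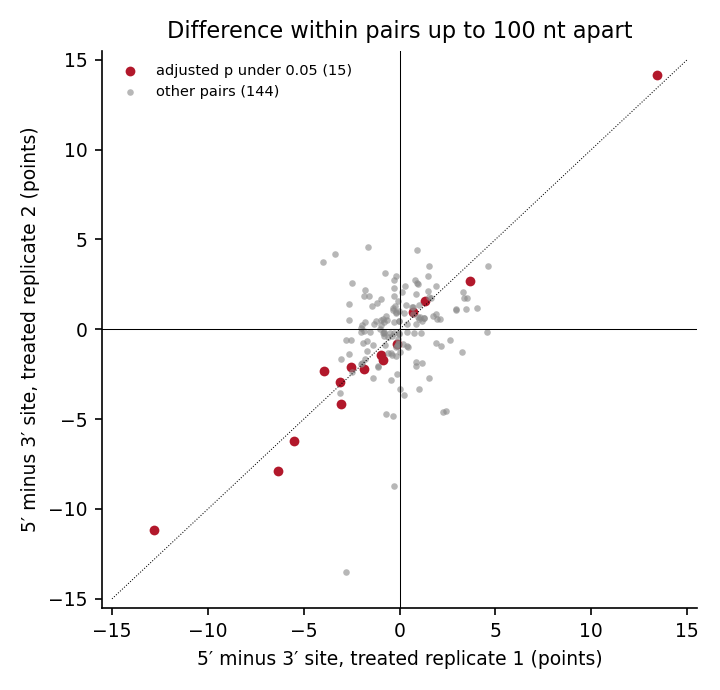
Difference of the 5′ minus the 3′ site in treated replicate 2 (vertical axis, percentage points) against the same difference in treated replicate 1 (horizontal axis) for the 159 pairs up to 100 nt apart; the dotted line marks equal values. The 15 pairs that passed the test (red) all have the same sign in both replicates, and the other 144 pairs (grey) lie mostly around 0. The test used the sum of both replicates, so the shared sign follows largely from that choice.

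Some of the largest differences rested on few reads or on 1 library. RPB2 had 8.82% and 8.63% at the 5′ site and 9.13% and 17.3% at the 3′ site in treated replicates 1 and 2. Its difference of -4.51 ± 5.93 points did not pass (adjusted exact p = 0.124). PPX1, an exopolyphosphatase, had 12.9% and 13.4% at the 5′ site and 8.28% and 9.91% at the 3′ site, and the difference of 4.06 ± 0.785 points did not pass at 466 and 526 reads (adjusted exact p = 0.287). In ASH1, whose mRNA is carried to the tip of the bud, the 5′ site had 7.66% and 7.71%, among the lowest clustered levels, and the 3′ site 10.8% and 11.3% (difference -3.34 ± 0.307 points, adjusted exact p = 0.233). The lowest level of a clustered site was 7.60%, in SDH1 (the flavoprotein subunit of succinate dehydrogenase), followed by 7.65% in FBA1, 7.66% in BAT1 (a branched-chain amino acid transaminase), 7.66% in PCS60 (a peroxisomal enzyme) and 7.69% in ASH1. Each of these genes had a higher site in the same cluster, at 9.60%, 9.11%, 9.90%, 9.83% and 11.0%.

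Clustered sites occurred in all 13 gene lists examined. The lists were chosen with earlier results of these data known, and the shares are descriptions. Over all single-gene sites the share in a cluster was 16.3%. It was 34.9% in chaperones, with 15 of 43 sites, in HSP104, HSC82, SSB1 and HSP78. These 43 sites lay in 18 genes, against 1889 single-gene sites in 1253 genes. A gene with more listed sites has more chances of a close neighbour, and the shares were not adjusted for this. The Hsp90 chaperone gene HSC82 had pairs 70 nt and 6 nt apart with 7.80% to 8.73%, and HSP78, a mitochondrial disaggregase, had 9.46% and 10.7%. In the tricarboxylic acid cycle 8 of 28 sites (28.6%) were clustered, in KGD1, SDH1, SDH3 and LPD1, with a median level of 9.15%, against 8.78% for the other sites of the list. In fatty acid and sterol synthesis the count was 8 of 29 (27.6%), in ACC1, HMG2, an HMG-CoA reductase, and ERG2, a sterol isomerase. Both ACC1 clusters, 1 nt and 64 nt wide, had levels of 8.30% to 8.89%, although the gene had 8 sites in all.

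Cytosolic ribosomal proteins had 12 of 51 sites in a cluster (23.5%), in RPL4A, RPL4B, RPL9A, RPP0, RPL36A and RPS8A, with a median level of 8.83% against 8.53% at the other sites of the list. Cell wall and secreted proteins had 6 of 26 (23.1%), in UTH1, SIM1 and SCW10, with the highest median of the lists, 10.6% against 8.88%. Plasma membrane transporters had 6 of 29, in HOL1 (10.8% and 8.61%, and 9.80% and 9.01%) and HXT7. Glycolysis and fermentation had 7 of 36, in FBA1, PDC1 and ADH4. Amino acid and one-carbon synthesis had 13 of 70, in ARO4, HIS4, TRP5, BAT1, GDH3 and HOM2, with levels of 7.66% to 11.0%. Glycogen and trehalose metabolism had 4 of 27, all in GDB1, whose pairs 80 nt and 87 nt apart had levels of 8.79% to 11.5%. The shares were 4 of 26 in vacuolar hydrolases (AMS1 and APE1), 4 of 29 in translation factors (CAM1 and TIF1), 2 of 16 in aminoacyl-tRNA synthetases (VAS1) and 2 of 24 in actin, septins and polarity (MYO5). Reads of HSC82, TIF1, HXT7, RPL36A and RPS8A may also be shared with near-identical paralogs.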

How the data were processed

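The deposited table gives, per the file headers, read coverage and mutated-read counts for each listed position and library, and the authors' mutated fraction, which equals their quotient. It also holds the authors' ratio of treated to input fraction and their p-value and q-value per replicate, as deposited; these were not used. The submitters' processing notes name cutadapt and STAR. For tool versions, genome build and site caller, no name was given in the sources used here. The sample titles gave group and replicate. The depth of whole libraries is unknown here. The shallowest clustered sites had 130 reads in treated replicate 1, 96 in treated replicate 2, 111 in input replicate 1 and 104 in input replicate 2.

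Clusters join consecutive sites of a gene and strand at most 100 nt apart. Fisher exact tests are two-sided, on summed counts with at least 10 reads, with Benjamini-Hochberg adjustment. They were also run on simulated counts drawn independently per site, without shared reads or spread between replicates. That run does not cover these 2 features of the data. Intervals (Wilson for shares, Newcombe for differences, 95%) cover counting error only. SDs are over 2 libraries. The counting error of a pair is the binomial standard error of the difference at the pooled level. Members and lists were chosen with earlier results of these data known. Named genes are those with 3 or more clustered sites in a cluster, with a pair at 1 to 4 nt, with the 10 largest differences, with the highest or lowest 5 levels, the highest 5 coverages or the highest 5 input fractions, and list members with a cluster; others were chosen after their values were seen. Gene symbols came from RefSeq (R64). No sequence was used. Alternatives changed the window, the paralogs, the coverage minimum, the level threshold, the replicates and the test. Python 3.11.15, numpy 2.4.6, scipy 1.17.1, pandas 2.3.3 and matplotlib 3.10.9 were used.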

Additional observations from a re-analysis of the deposited data

How the results depend on the processing

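The number of clustered sites, 307, was 216 with a window of 50 nt, 425 with 200 nt, 272 without near-identical paralogs and 305 with at least 100 reads in every library. It was 57 when only sites with at least 8.5% in both treated replicates were kept, which removes most sites and with them their neighbours. With 1 replicate left out the median level, 8.98%, came to 8.68% or 8.95%, and restricting it to sites of 1000 or more reads per library gave 8.53%. The number of pairs within 100 nt that differed was 15, and 9 to 10 with a replicate left out (fewer reads); without replicate 1 the pairs of RPL4B (adjusted exact p = 0.373), SIM1 (adjusted exact p = 0.132) and CTT1 (adjusted exact p = 0.0687) no longer passed, and RPL9A, PDC1, RPP0 and ASC1 passed in neither replicate alone. FBA1's pair 51 nt apart was lost without replicate 2 (adjusted exact p = 0.994). RPB2 passed without replicate 1 (adjusted exact p = 0.0179), where its site had 17.3%. No direction turned among the 19 pairs followed, which were chosen on both replicates together. The median difference within pairs ranged from 1.02 to 1.27 points with a replicate left out, against 0.959 points. The input share, 0.0468%, was 0.0465% without the HXT7 site and 0 as a median of site fractions, since over 50% of sites had no mutated read. Treated and input libraries share their replicate numbers. The deviations of same-numbered libraries were hardly correlated, with a Pearson's r of -0.00502 for coverage. For the mutated fraction at sites with at least 1000 reads, r was 0.0185. With the replicate number as a block, the Cochran-Mantel-Haenszel test called 307 sites and 15 pairs, the same 15 as without it. Chosen after seeing the data, a minimum of 1000 reads left 33 pairs within 100 nt, of which 15 passed, 12 of them among the 15 above, and leaving out IRA2 gave 14 of 157. The context of the sites in the genome sequence was left out for want of a genome.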

Other observations

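The distance between neighbours was a multiple of 3 nt in 63 of the 159 pairs within 100 nt (39.6%), against 152 of 477 pairs farther apart (31.9%). By class the counts were 16 of 43 at 1 to 4 nt, 13 of 31 at 5 to 20 nt and 34 of 85 at 21 to 100 nt. The classes do not offer the same share of multiples of 3 among their distances, so these counts were not compared. At 1 to 4 nt the only multiple is 3 nt itself. Among pairs with at least 1000 reads in every library at both sites, 17 of 33 were multiples within 100 nt, 8 of them at 1 to 4 nt. Over 100 nt it was 23 of 73. With fewer reads the counts were 8 of 27, 10 of 28 and 28 of 71 in the 3 classes, and 129 of 404 over 100 nt. These counts were not compared either, for the same reason. Whether such sites share a codon position was not tested, as no reading frames were used here.

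Clustered sites made up between 6.90% of the single-gene sites on chromosome V and 23.8% on chromosome I, with 6 of 87 and 10 of 42 sites. On the plus strand lay 170 clustered sites and on the minus strand 137, against 781 and 801 of the other sites. At 1 to 4 nt the strands held 54 and 31 sites.

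Sites of the same 142 genes outside the clusters numbered 114. They had a median level of 8.78%, against 8.98% inside the clusters, and a median coverage of 564 and 402 reads in treated replicates 1 and 2, close to the 575 and 404 of the clustered sites. The highest of them had 20.7%.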
